A study of Oryza sativa Japonica Group with 17 samples.

Results

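Type-A response regulators are small proteins of cytokinin signalling in plants. The 8 rice genes described here were taken by locus identifier, as early reporters of the response to cytokinin: OsRR1 (LOC_Os04g36070), OsRR2 (LOC_Os02g35180), OsRR3 (LOC_Os02g58350), OsRR4 (LOC_Os01g72330), OsRR6 (LOC_Os04g57720), OsRR7 (LOC_Os07g26720), OsRR9 (LOC_Os11g04720) and OsRR10 (LOC_Os12g04500). They are 8 of the 55986 loci in the authors' deposited table. The 2 digits after Os in an identifier give the chromosome, so the genes lie on 6 chromosomes, with OsRR2 and OsRR3 sharing chromosome 2 and OsRR1 and OsRR6 sharing chromosome 4.

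RNA was compared between osddm1a/1b plants (2 libraries) and Cr-DJ-1 plants (2 libraries), taken from the series' file list as the wild type of this comparison. Both genotypes are labelled DongJin, a japonica variety of Oryza sativa, and leaves were taken from seedlings of 12 days that had grown on medium without hormones. DDM1 remodels chromatin and keeps DNA methylated in heterochromatin, and rice carries the copies DDM1a and DDM1b. The titles of the mutant libraries give osddm1a/1b, but another label of the same libraries gives osddm1b alone. The labels describe no allele, call the libraries of a genotype repeats and do not say whether they came from separate plants, so the p-values measure a spread that may be technical. The series has 17 samples in all, and its other libraries hold no value for these genes that is used here.

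Cytokinin is perceived by histidine kinase receptors, and a phosphate passes from them through phosphotransfer proteins to response regulators. Type-B regulators bind DNA and switch on target genes, among them the type-A regulators. Type-A regulators carry the receiver domain without a DNA-binding output and dampen the signal, and their transcripts rise soon after cytokinin is given. Enzymes of cytokinin synthesis, activation, oxidation and conjugation set how much active hormone reaches the receptors.

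The authors' deposited table gives, for each locus, a mean of normalized counts over the 4 libraries, a log2 change, its standard error (SE) and a DESeq2 p-value, but no value per library. The whole reads of each library were solved from the mean, the log2 change and the SE, and the solution was accepted for each of the 8 genes. Reads divided by a library's size factor, the scale for its relative depth, are called normalized reads below. The size factors were 1.15 and 0.888 in the osddm1a/1b libraries and 1.10 and 0.891 in the Cr-DJ-1 libraries, so the deepest library had under 1.5 times the depth of the shallowest. Which library is repeat 1 or repeat 2 is not known, and libraries are called deeper or shallower within their genotype. The total reads per library are not known.

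The direction of the deposited changes is not stated in the table. Changes are given as osddm1a/1b over Cr-DJ-1, with the deposited sign turned. This is the likely reading, since the file list puts DJ before the mutant in the name of the comparison and DDM1b then comes out as the lower gene in osddm1a/1b. DDM1b (LOC_Os03g51230) had 68.4 and 65.3 normalized reads in osddm1a/1b, against 719.9 and 739.7 in Cr-DJ-1, and DDM1a (LOC_Os09g27060) had 260.7 and 260.2 in osddm1a/1b, against 304.7 and 270.5 in Cr-DJ-1. In the authors' deposited table DDM1b fell by 3.27 log2 units (SE 0.16, adjusted p = 1.27e-86) and DDM1a stood at -0.14 (SE 0.16, adjusted p = 0.511). Because DDM1b helped to choose the direction, it cannot check the labels independently, and each "higher", "lower", "rose" and "fell" below holds under this reading.

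The type-A regulators did not move as a block. OsRR9, OsRR10 and OsRR6 rose in osddm1a/1b, OsRR2 and OsRR4 fell, and OsRR1, OsRR3 and OsRR7 did not pass the test, at an adjusted p under 0.05 over all loci in the authors' deposited table. The rises spanned 1.61-fold to 2.52-fold and were larger than the falls, which left 0.771 and 0.76 of the Cr-DJ-1 level, in the authors' deposited table. The 5 calls are 62.5% of the 8 genes, beside 46.7% of the 29212 loci tested in the authors' deposited table. The 3 rises are 37.5% of the genes, beside 27.6% of tested loci that rose, and the 2 falls are 25%, beside 19.1% of tested loci that fell. Calls are made more often among loci with many reads. At a mean of at least 100, which OsRR3 and OsRR7 do not reach, the authors' deposited table calls 54.2% of loci and 5 of the 6 remaining genes. With 8 genes these shares are not far from the background, and the number of calls is no result about the family. The median log2 change of the 8 genes was 0.22 in the authors' deposited table, beside 0.05 for all tested loci.

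**Figure D1:**
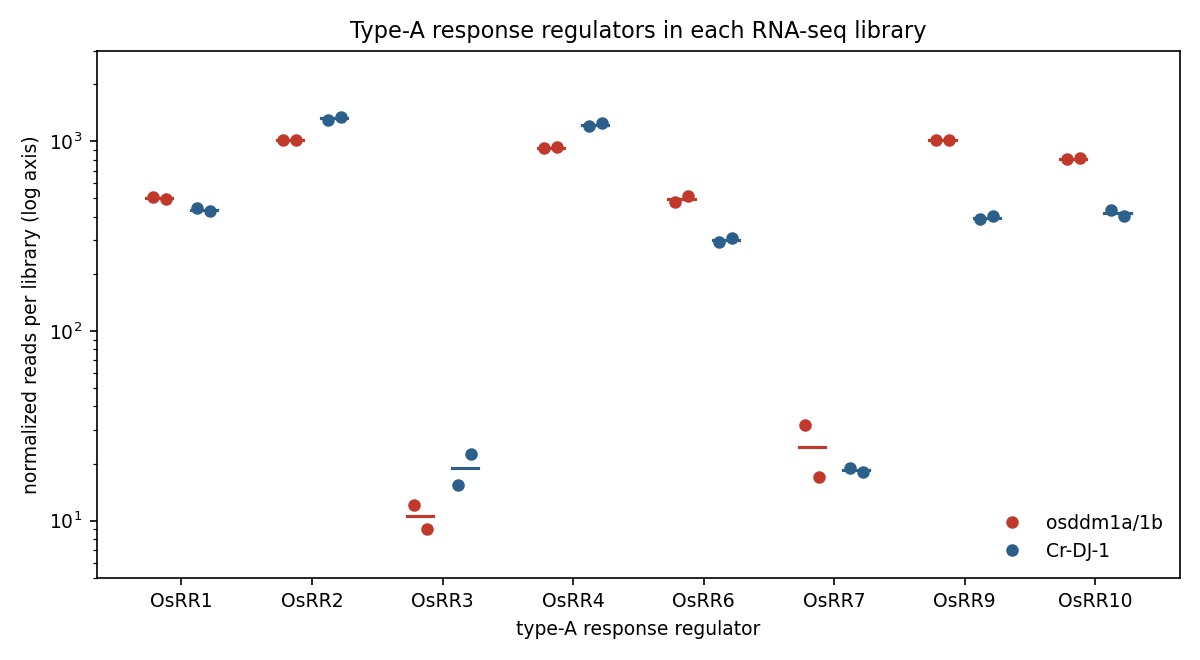
Normalized reads of the 8 type-A response regulators on a log axis, with 1 point per RNA-seq library (osddm1a/1b in red on the left of each pair, Cr-DJ-1 in blue on the right) and a line at the mean of each genotype's 2 libraries. The points of OsRR9, OsRR10 and OsRR6 are higher in osddm1a/1b, those of OsRR2 and OsRR4 are lower, and the 2 genes near the bottom, OsRR3 and OsRR7, have the widest spread on this axis.

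OsRR9 had the largest change of the 8 genes in the authors' deposited table. It was read 1168 and 906 times in osddm1a/1b, which makes 1012 and 1020 normalized reads, and 428 and 360 times in Cr-DJ-1, which makes 388.1 and 404.1 normalized reads. The libraries of a genotype lay 8.9 normalized reads apart in osddm1a/1b and 16.0 apart in Cr-DJ-1, and the genotypes did not overlap. The authors' deposited table puts the change of OsRR9 at 1.33 log2 units (SE 0.11, adjusted p = 2.23e-35), which is 2.52-fold.

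OsRR10 is the close copy of OsRR9, and the pair is known from rice mutants to limit tolerance of salt. OsRR10 had 803.7 and 813.1 normalized reads in osddm1a/1b, against 436.1 and 405.2 in Cr-DJ-1. Both mutant libraries stood well above both wild-type libraries, whose own gap was 30.9. In the authors' deposited table OsRR10 rose by 0.92 log2 units (SE 0.11, adjusted p = 1.59e-15), which is 1.89-fold.

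OsRR9 and OsRR10 belong to a segment near the ends of chromosomes 11 and 12 that is present in both in nearly the same form, so reads could have been split between them or dropped in counting, and the sources used here do not give the rule for such reads. Their summed reads do not depend on how reads were split between them, although dropped reads are missing from the sum. Reads split in this way would tie the counts of OsRR9 and OsRR10, so their rises may not be separate results. The pair together had 1815 and 1834 normalized reads in osddm1a/1b, against 824.2 and 809.3 in Cr-DJ-1, a ratio of 2.23. Leaving out any 1 library kept the log2 ratio of the sums between 1.15 and 1.17. OsRR9 supplied 55.7% of the pair's reads in the deeper osddm1a/1b library (Wilson 95% interval 53.6% to 57.8%) and 55.7% in the shallower (53.2% to 58%). Its share was 47.1% in the deeper Cr-DJ-1 library (43.9% to 50.3%) and 49.9% in the shallower (46.3% to 53.6%). The mutant shares were higher, but the intervals of the shallower libraries met, and with 2 libraries per genotype the exact two-sided permutation test cannot give a p below 0.333. The intervals take in counting error alone, because reads copied by amplification do not each stand for a molecule.

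**Figure D2:**
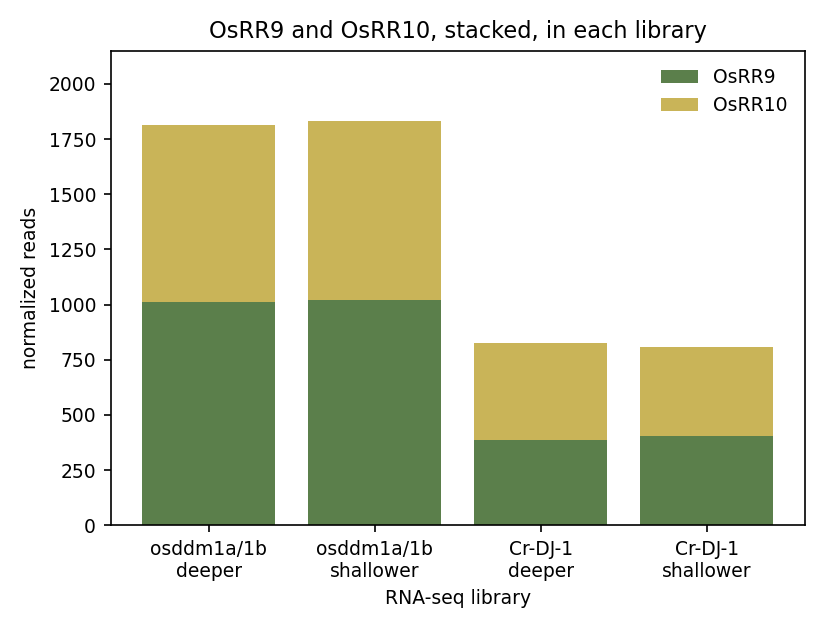
Normalized reads of OsRR9 (green) and OsRR10 (yellow) stacked for each of the 4 RNA-seq libraries, osddm1a/1b on the left and Cr-DJ-1 on the right. The stacks reach 1815 and 1834 in osddm1a/1b, against 824.2 and 809.3 in Cr-DJ-1. As counted, the parts of both genes are higher in osddm1a/1b, but how reads that match both were split is not known.

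OsRR6 was the third gene that rose; rice plants made to overproduce it respond weakly to cytokinin and form shoots poorly in culture. It had 476.3 and 514.7 normalized reads in osddm1a/1b, against 292.9 and 310.9 in Cr-DJ-1. The lowest mutant library was above the highest wild-type library, by more than the gaps of 38.4 and 18.0 within the genotypes. The authors' deposited table gives OsRR6 a log2 change of 0.69 (SE 0.14, adjusted p = 2.00e-06), or 1.61-fold.

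OsRR2 and OsRR4 fell by nearly the same amount. OsRR2, which the crown-root factor WOX11 represses in rice roots, had 1013 and 1019 normalized reads in osddm1a/1b, against 1299 and 1345 in Cr-DJ-1. In the authors' deposited table OsRR2 fell by 0.37 log2 units (SE 0.08, adjusted p = 1.49e-05). OsRR4 had 916.3 and 933.7 normalized reads in osddm1a/1b, against 1201 and 1244 in Cr-DJ-1, and in the authors' deposited table it fell by 0.40 (SE 0.08, adjusted p = 1.08e-05). Neither gene's genotypes overlapped, and the largest gap within a genotype was 45.3 normalized reads. Both falls were small: neither reached 1.5-fold in the authors' deposited table.

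OsRR1 did not pass the test although it had many reads. It had 507.5 and 493.3 normalized reads in osddm1a/1b, against 442.5 and 429.9 in Cr-DJ-1, so the 2 mutant libraries were the higher ones and the genotypes did not overlap. The authors' deposited table gives it a log2 change of 0.19 (SE 0.12, adjusted p = 0.199), with a 95% interval from -0.05 to 0.44. That interval holds both no change and a rise, and it leaves out the changes deposited for OsRR6, OsRR9 and OsRR10.

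OsRR3 and OsRR7 had few reads, and their intervals are wide. OsRR3 was read 14 and 8 times in osddm1a/1b, against 17 and 20 times in Cr-DJ-1, or 12.1 and 9.0 normalized reads against 15.4 and 22.4. OsRR7 was read 37 and 15 times in osddm1a/1b, against 21 and 16 times in Cr-DJ-1, or 32.0 and 16.9 normalized reads against 19.0 and 18.0. The genotypes of OsRR7 overlapped, and the deeper osddm1a/1b library alone put its mutant mean above that of Cr-DJ-1. How often the genotypes do not overlap over all loci is not known, since reads were not solved for the whole table. With 2 libraries per genotype, genes without a change can also separate, so a lack of overlap is no result about these genes. In the authors' deposited table OsRR3 stood at -0.43 (SE 0.38, adjusted p = 0.371, 95% interval -1.18 to 0.31) and OsRR7 at 0.25 (SE 0.37, adjusted p = 0.615, 95% interval -0.48 to 0.98). A change as large as that of OsRR6 is under 2 SE in both genes, so the depth leaves changes of that size hard to detect.

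**Figure D3:**
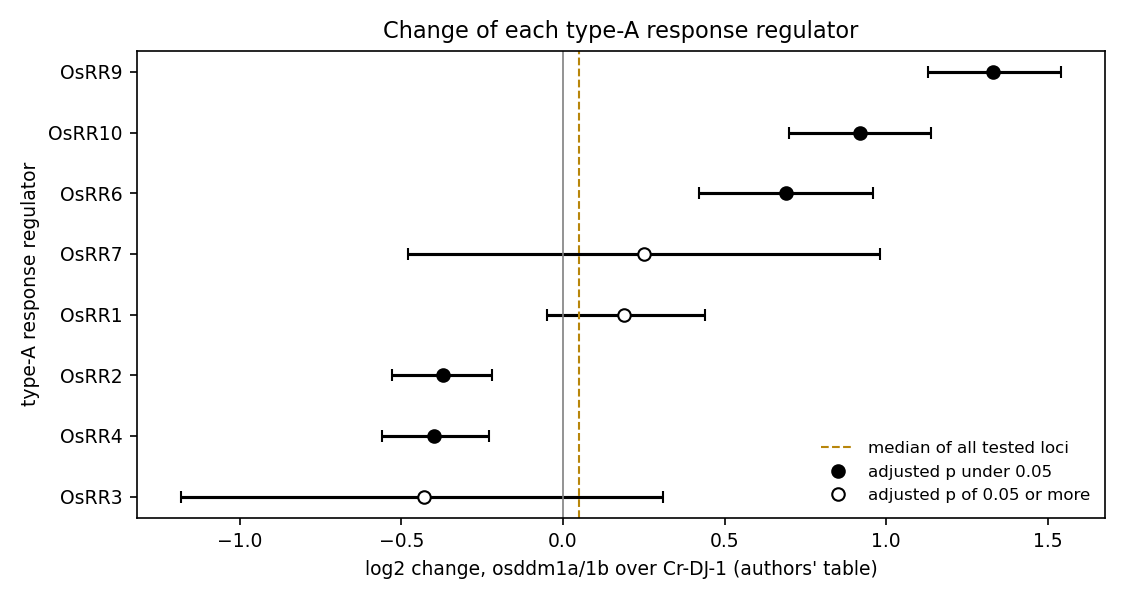
Log2 change (osddm1a/1b over Cr-DJ-1) of each type-A response regulator in the authors' deposited table, with bars for the 95% interval, filled points for an adjusted p under 0.05 and a dashed line at 0.05, the median of all tested loci. OsRR9, OsRR10 and OsRR6 lie to the right of 0, OsRR2 and OsRR4 to the left, and the bars of OsRR7, OsRR1 and OsRR3 cross 0.

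The reads of the 8 genes added together came to 4773 and 4820 normalized reads in osddm1a/1b, against 4094 and 4179 in Cr-DJ-1, a ratio of 1.16. Without OsRR9 and OsRR10 the sum of the other 6 was 2957 and 2987 in osddm1a/1b, against 3270 and 3370 in Cr-DJ-1. The sum of the 8 genes was therefore higher in the mutant only with the OsRR9 and OsRR10 pair counted in. Among the other 6, OsRR6 (mean of 495.5 in osddm1a/1b, against 301.9 in Cr-DJ-1), OsRR1 (500.4 against 436.2) and OsRR7 were higher. OsRR2 (1016 against 1322), OsRR4 (925.0 against 1222) and OsRR3 were lower, and genes with more reads weigh more in such a sum. The median over single genes depends on the libraries used: from the solved reads it was 0.30, 0.02 without the deeper osddm1a/1b library and 0.44 without the shallower. With all 4 libraries the middle genes were OsRR1 and OsRR7, and OsRR7, with few reads, stood at -0.13 without the deeper osddm1a/1b library and at 0.78 without the shallower. Levels of different genes are not compared, because no transcript lengths in the build of the table were used here.

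The other 5 listed type-A loci added little. OsRR11 had 16.5 and 11.3 normalized reads in osddm1a/1b, against 10.9 and 12.3 in Cr-DJ-1, and stood at 0.13 (SE 0.38, adjusted p = 0.81; authors' deposited table). OsRR5 had 14.7 and 6.8 in osddm1a/1b, against 6.3 and 6.7 in Cr-DJ-1, and stood at 0.29 (SE 0.37, adjusted p = 0.565; authors' deposited table). Of the remaining 3 loci, OsRR13 and LOC_Os08g28900 had no read in any library and LOC_Os08g28950 had 1 read in each osddm1a/1b library and none in Cr-DJ-1.

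The receptors and most tested type-B regulators were lower in osddm1a/1b, and so were inhibitors of the relay between them. The receptors, phosphotransfer proteins and type-B regulators made up 22 listed loci, of which 14 were tested, and 10 fell, 1 rose and 3 missed the threshold in the authors' deposited table, beside the 19.1% of all tested loci that fell and 27.6% that rose. All 14 had a mean of at least 100, where 27.1% of tested loci fell. Their median log2 change was -0.34 in the authors' deposited table, beside 0.05 for all tested loci and -0.02 for those with a mean of at least 100. The falls were small, and PHP2 was the 1 locus of the 10 that fell by over 1.5-fold in the authors' deposited table.

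All 4 receptor histidine kinases fell in the authors' deposited table, with log2 changes between -0.49 and -0.28. OsHK5 had 2967 and 2897 normalized reads in osddm1a/1b, against 4171 and 4083 in Cr-DJ-1, and fell by 0.49 (SE 0.05, adjusted p = 2.58e-23; authors' deposited table). OsHK4 had 1471 and 1618 in osddm1a/1b, against 2105 and 2009 in Cr-DJ-1, and fell by 0.41 (SE 0.07, adjusted p = 2.61e-08; authors' deposited table). For OsHK3 the reads per library were not solved, and it fell by 0.28 (SE 0.04, adjusted p = 2.25e-14; authors' deposited table).

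Among the phosphotransfer proteins, 3 listed pseudo-phosphotransfer proteins lack the histidine that takes up the phosphate and inhibit the relay. Of these 3, 2 were lower in the authors' deposited table, where 19.1% of all tested loci fell, and 27.1% of those with a mean of at least 100. The 2 proteins that carry the phosphate missed the threshold in the authors' deposited table. PHP2 had 66.7 and 61.9 normalized reads in osddm1a/1b, against 149.6 and 143.7 in Cr-DJ-1, and fell by 1.05 log2 units (SE 0.24, adjusted p = 5.70e-05; authors' deposited table). PHP1 had 593.2 and 569.9 in osddm1a/1b, against 752.6 and 725.1 in Cr-DJ-1, and fell by 0.34 (SE 0.11, adjusted p = 0.00414; authors' deposited table). OsAHP1 stood at -0.02 (SE 0.10, adjusted p = 0.861) and OsAHP2 at -0.09 (SE 0.08, adjusted p = 0.428; authors' deposited table), and the genotypes overlapped in both genes.

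Of 13 listed type-B regulators, the DNA-binding activators of type-A genes, 5 were tested in the authors' deposited table, where 4 fell and 1 rose. OsRR23 had 1492 and 1495 normalized reads in osddm1a/1b, against 2013 and 1960 in Cr-DJ-1, and fell by 0.41 (SE 0.07, adjusted p = 5.33e-09; authors' deposited table). OsRR24 had 904.1 and 931.4 in osddm1a/1b, against 1257 and 1146 in Cr-DJ-1, and fell by 0.39 (SE 0.09, adjusted p = 4.39e-05; authors' deposited table). OsRR22, whose loss makes rice tolerant of salt, fell by 0.26 (SE 0.10, adjusted p = 0.0317; authors' deposited table). OsRR21 was the 1 that rose, by 0.33 (SE 0.04, adjusted p = 2.51e-16; authors' deposited table), and its reads per library were not solved. OsRR21 also had the highest mean normalized count of the 5, 6187 in the authors' deposited table. The number of falls therefore does not show that type-B reads fell in sum. Of the type-A regulators, OsRR2 and OsRR4 fell by amounts within the range of the receptors in the authors' deposited table, whereas OsRR6, OsRR9 and OsRR10 rose by 1.61-fold and more; whether the lists differ was not tested.

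**Figure D4:**
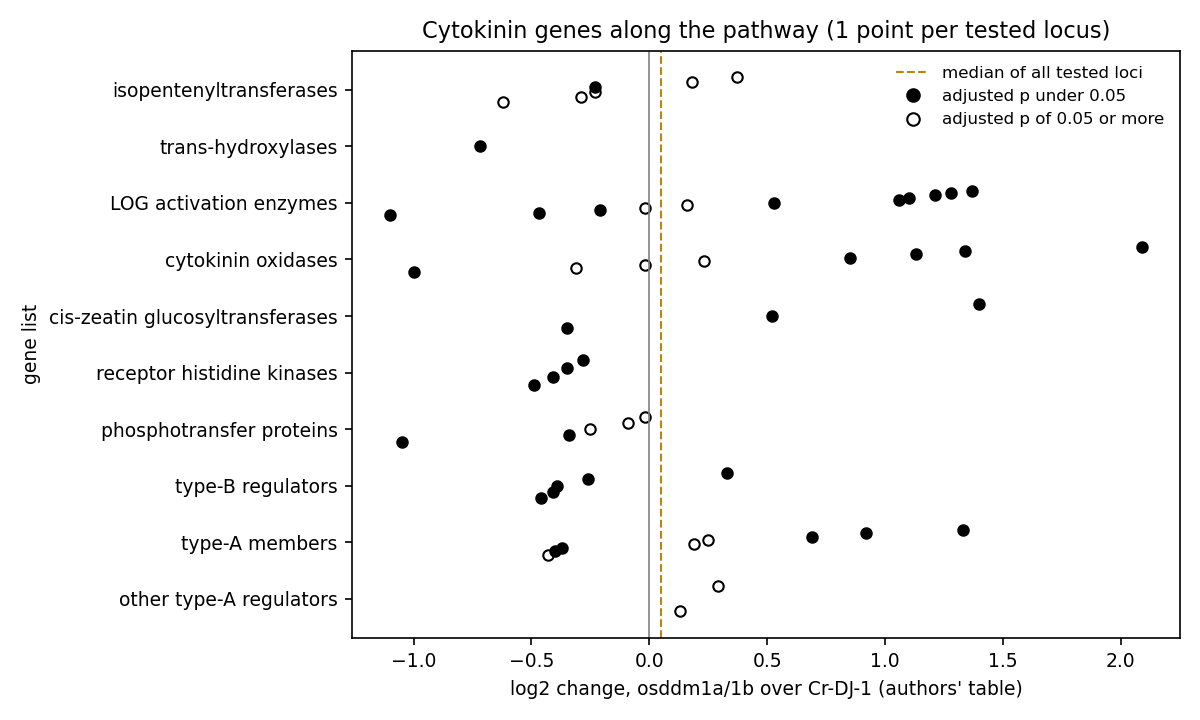
Log2 change (osddm1a/1b over Cr-DJ-1) in the authors' deposited table for every tested locus of 10 cytokinin gene lists, ordered from hormone synthesis at the top to the type-A regulators at the bottom, with filled points for an adjusted p under 0.05. The 4 receptors all lie left of 0, whereas the activation enzymes, oxidases, cis-zeatin glucosyltransferases, type-B regulators and type-A regulators have called points on both sides.

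Genes that set the amount of active cytokinin moved in both directions. LOG enzymes release the active hormone from its nucleotide form, and of 11 listed loci 6 rose, 3 fell and 2 missed the threshold in the authors' deposited table, where 27.6% of all tested loci rose and 19.1% fell. LOGL9 had 842.6 and 908.9 normalized reads in osddm1a/1b, against 315.5 and 345.7 in Cr-DJ-1, and rose by 1.37 (SE 0.12, adjusted p = 1.02e-30; authors' deposited table). LOGL3 rose by 0.53 (SE 0.11, adjusted p = 1.28e-05) and LOGL8 by 1.28 (SE 0.38, adjusted p = 0.00239; authors' deposited table). LOG, which is needed to keep the rice shoot meristem active, fell by 0.21 (SE 0.04, adjusted p = 4.32e-06; authors' deposited table). LOC_Os03g64070 had the largest fall of the list, -1.10 in the authors' deposited table.

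Cytokinin oxidases break the hormone down, and several are themselves induced by it. Of 11 listed loci 8 were tested, and 4 rose, 1 fell and 3 missed the threshold in the authors' deposited table, against the same shares of 27.6% and 19.1% over all tested loci. OsCKX5 had 1199 and 1219 normalized reads in osddm1a/1b, against 681.0 and 643.2 in Cr-DJ-1, and rose by 0.85 (SE 0.09, adjusted p = 8.41e-20; authors' deposited table). OsCKX4 had 312.6 and 389.7 in osddm1a/1b, against 146.9 and 159.4 in Cr-DJ-1, and rose by 1.13 (SE 0.18, adjusted p = 1.36e-09; authors' deposited table). OsCKX3 had 111.7 and 114.9 in osddm1a/1b, against 38.1 and 37.0 in Cr-DJ-1, and rose by 1.34 (SE 0.28, adjusted p = 5.96e-06; authors' deposited table). OsCKX11 went the other way, with 530.9 and 526.0 in osddm1a/1b, against 1093 and 1051 in Cr-DJ-1, and fell by 1.00 (SE 0.10, adjusted p = 1.96e-23; authors' deposited table).

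For hormone synthesis and conjugation the names of the loci could not be checked, and their lists are given by counts. Of 9 listed isopentenyltransferase loci 6 were tested, and 1 fell, none rose and 5 missed the threshold in the authors' deposited table, where 19.1% of all tested loci fell. Of 2 listed trans-hydroxylase loci, which turn the precursor into the trans-zeatin form, LOC_Os09g23820 was read 0 and 0 times in osddm1a/1b, against 8 and 7 times in Cr-DJ-1. With 3 counts over the 2 mutant libraries taken as the limit, the Cr-DJ-1 level was 5.12 times that limit. The counting error of the Cr-DJ-1 reads is not included, so 5.12 is no strict lower bound. The authors' deposited table gives this locus a moderated log2 change of -0.72 (SE 0.31, adjusted p = 0.046). Of 3 loci for glucosyltransferases of cis-zeatin, the authors' deposited table has 2 that rose (27.6% of all tested loci) and 1 that fell (19.1%).

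Markers of the meristem and of dividing cells were higher in osddm1a/1b, and those of the root were not called. All 4 KNOX genes, which mark the shoot meristem and are known to raise cytokinin synthesis there, rose in the authors' deposited table, beside 27.6% of all tested loci, and their summed normalized reads were 213.9 and 180.2 in osddm1a/1b, against 39.9 and 28.1 in Cr-DJ-1. All 4 markers of dividing cells (PCNA, CDKB2;1, CYCB2;2 and MCM5) also rose in the authors' deposited table, beside the same 27.6%, with sums of 3756 and 3724 in osddm1a/1b, against 1823 and 1818 in Cr-DJ-1. Of 3 green leaf markers the authors' deposited table has CAB1R and CAB2R higher and LOC_Os12g17600 lower, and CAB1R and CAB2R summed to 7674 and 7599 normalized reads in osddm1a/1b, against 2682 and 2866 in Cr-DJ-1. Of 3 root markers 2 were tested, and neither passed 0.05 in the authors' deposited table. Lsi1 had 487.6 and 489.9 normalized reads in osddm1a/1b, against 479.7 and 488.3 in Cr-DJ-1. OsIRT1 had 10.4 and 9.0 in osddm1a/1b, against 8.2 and 16.8 in Cr-DJ-1. Lsi2, which was not tested, had no read in osddm1a/1b and 1 in Cr-DJ-1. OsRR6, OsRR9 and OsRR10 rose in the same libraries as the KNOX genes, the dividing-cell markers, CAB1R and CAB2R. With 1 comparison this holds for all of the 27.6% of tested loci that rose. The part of these markers in the rises of OsRR6, OsRR9 and OsRR10 was not tested. In RNA from whole leaves, a change in the share of a cell type and a change in RNA per cell cannot be told apart.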

How the data were processed

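The table used is one that the authors made of their own comparison and deposited without a header line. The authors formed its signal column as the mean, over 4 libraries, of counts divided by size factors, and the deposited log2 column holds the change between genotypes. After these the deposited columns give SE, Wald score, p-value and adjusted p-value. The columns were identified from the values: score times SE returned the log2 change, with scores off by at most 1.7e-06, and a Benjamini-Hochberg adjustment of the p-values differed by at most 2.5e-07 from the deposited ones. The submitters' processing notes name, without roles, FastQC, Trimmomatic and TopHat, then HTSeq and DESeq2, and also Bowtie, edgeR and Bowtie2 (2.1.0). The labels' protocols name a stranded mRNA kit, but the counting of strand, the genome build and the treatment of reads with several positions were not found in the sources used here. The authors' log2 changes are moderated towards 0 at low counts, which understates changes of genes with few reads.

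The authors' p-values were read at 0.05; a locus needed a mean of at least 2.88 to have an adjusted p. Whole reads were solved as follows. Each mean is a sum of whole reads times a fixed step per library, and all 3575 distinct means under 10 equalled such sums within 1.2e-09. A solution that was the only one under a mean of 25 was accepted. A sole solution at a higher mean also had to refit the deposited change from its SE within 5e-06 (prior variance 0.5815). Where the mean left several solutions, the best had to refit within 3e-06 and the next best had to miss by more than 3e-06. Above a mean of 60, solutions were sought with the libraries of a genotype within 2.5-fold of each other. In this way 82 of 87 listed loci were solved. The calculation was tested on simulated data. A mutant or wild-type side was given to a library by the sign of the deposited changes. Between the libraries of a genotype the variance was 1.25 times sampling noise in osddm1a/1b (2819 loci) and 1.31 times in Cr-DJ-1 (2436 loci) at means of 20 to 60, where 302 loci were not solved. No count test was run on solved reads, which were sought for the listed loci and at means of 20 to 60 and not for the whole table.

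The 8 genes and all lists were chosen with earlier results of these data known. The names of 52 of 87 listed pairs, 7 of the 8 genes among them, had the chromosome and the order of their locus numbers in the RefSeq table (assembly ASM3414082v1); other loci are called by identifier, apart from OsRR3, DDM1a and DDM1b. Named genes are the 8, both DDM1 copies and, per list, up to 4 accepted names with the smallest adjusted p under 0.05 or the 2 with the highest mean; LOC_Os09g23820, LOC_Os03g64070, OsRR13 and the loci at or near 0 reads were added after their values were seen, as were OsAHP1, OsAHP2, Lsi2, LOC_Os12g17600 and LOC_Os04g44230. Histone peaks and small RNA lists were not used here, since no gene annotation in their build was at hand, and promoter motifs and protein identity were not computed. Python 3.11.15, numpy 2.4.6, pandas 2.3.3, scipy 1.17.1 and matplotlib 3.10.9 were used.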

Additional observations from a re-analysis of the deposited data

How the results depend on the processing

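The 5 calls among the type-A regulators, 3 higher and 2 lower, kept their number at an adjusted p under 0.01, with adjustment over every locus with a p-value, with loci of a mean of at least 10 alone, after centring on the median of tested loci, and with all listed type-A regulators counted. When at least 1.5-fold was asked as well, 3 calls were left, all of them rises, and the number of falls was 0. The share of all tested loci that meet this demand was not computed, so the counts under it are no result about the lists. Under the same demand the number of receptors that fell was 0 and of type-B regulators that fell 0 (and 3 at an adjusted p under 0.01, which OsRR22 missed), while the count of oxidases that rose did not change. These 3 lists were put through the alternatives after the data had been seen. The median log2 change of the 8 genes was 0.17 after centring, 0.22 over all listed type-A regulators, 0.30 from solved reads, and 0.02 to 0.44 when each library was left out in turn. Of 48 recomputed values of single genes 1 had the other sign, that of OsRR7, and OsRR3 ranged from -1.05 to -0.52 with a library left out. The tests were not rerun with a library left out, as reads were not solved for the whole table. No paired analysis was possible because the table does not tell which library is repeat 1 or 2. The motif on 1 strand was not run. Depth limits OsRR3 and OsRR7, with 59 and 89 reads over 4 libraries.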

Other observations

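The deposited changes and the ratios of solved reads differed where reads were few. OsRR3 stood at -0.43 in the authors' deposited table and at -0.81 from the ratio of normalized reads with 0.5 added, and the shoot meristem gene OSH71 was 3.99-fold higher in osddm1a/1b in the authors' deposited table and 6.25-fold higher from its reads (101 and 71 reads in osddm1a/1b, against 15 and 11 in Cr-DJ-1). For OsRR9 the 2 scales gave 1.33 in the authors' deposited table and 1.36 from reads.

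On the moderated scale of the authors' deposited table, the largest change among tested loci of the cytokinin lists was that of the oxidase locus LOC_Os04g44230, whose name could not be checked and which was chosen after its values were seen. It had 128.2 and 155.4 normalized reads in osddm1a/1b, against 22.7 and 26.9 in Cr-DJ-1, and rose by 2.09 log2 units (SE 0.28, adjusted p = 9.15e-13; authors' deposited table).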
